A study of Saccharomyces cerevisiae with 21 samples.

Results

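In budding yeast (Saccharomyces cerevisiae) released from a G1 arrest, 31 genes stood higher at 10 min than at 0 min and than the mean of 20 and 30 min. A gene was included when its log2(FPKM + 1) at 10 min was at least 1 above that at 0 min and at least 1 above the mean of 20 and 30 min, which is a 2-fold step on each side. FPKM is a fragment count scaled to transcript length and library. The table held 7126 loci, of which 5110 could be included because their mean was at least 10 FPKM and their names were not of the classes left out (names starting snR or ending in -A, -B or -C). The 31 genes were 0.607% of these 5110. The genes were chosen by the values at 0, 10, 20 and 30 min, so their steps at these times are a description and were not tested. Only 1 library was taken at 10 min, so a change in the cells and a property of that library cannot be told apart.

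All 21 libraries came from 1 time course of 1 strain, sampled every 10 min from 0 to 200 min after release, with 1 library per time. The strain was BF264-15D MATa bar1::hphMX4 arg4 with the 6 B-type cyclin genes disrupted by marker genes (clb1::URA3 and clb2::LEU2, then clb3::TRP1 and clb4::HIS2, and lastly clb5::ARG4 and clb6::ADE1), and with PGAL1-CLB1::LEU2, a CLB1 copy behind the galactose-driven GAL1 promoter. Cells grown in YEPGalactose at 30 °C were held with the mating pheromone alpha-factor at 30 ng/ml for 160 min and were then placed in YEPDextrose at 30 °C. Pheromone removal and the change from galactose to dextrose happened at the same moment, so their parts cannot be told apart. Per its label, the strain has disruptions in all 6 genes of the B-type cyclins, which drive S phase and mitosis, and no wild-type library was analysed here.

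At the end of mitosis and in early G1, yeast cells make the proteins that license replication: Cdc6 and the origin recognition complex load the ring-shaped helicase Mcm2-7 onto origins. Many of these genes carry sites for Mcm1, a DNA-binding factor, in early cell-cycle boxes. Dextrose is the preferred carbon source, and its arrival is known to switch off genes that serve growth on galactose, ethanol or acetate and to change the set of hexose transporters. Iron uptake genes are known targets of Aft1, and many genes of amino acid synthesis are known targets of Gcn4.

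The summed level of the 31 genes was 3168, 8450, 2336 and 1736 FPKM at 0, 10, 20 and 30 min. As a share of all FPKM in the library, this was 0.166%, 0.547%, 0.150% and 0.102% at the same times. At 10 min single genes ranged from 29.7 FPKM for PDH1 to 1750 FPKM for HXT2, with a median of 129 FPKM. At 30 min 21 of the 31 genes were below their level at 0 min. Across the whole course, 26 had their highest level at 10 min.

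**Figure D1:**
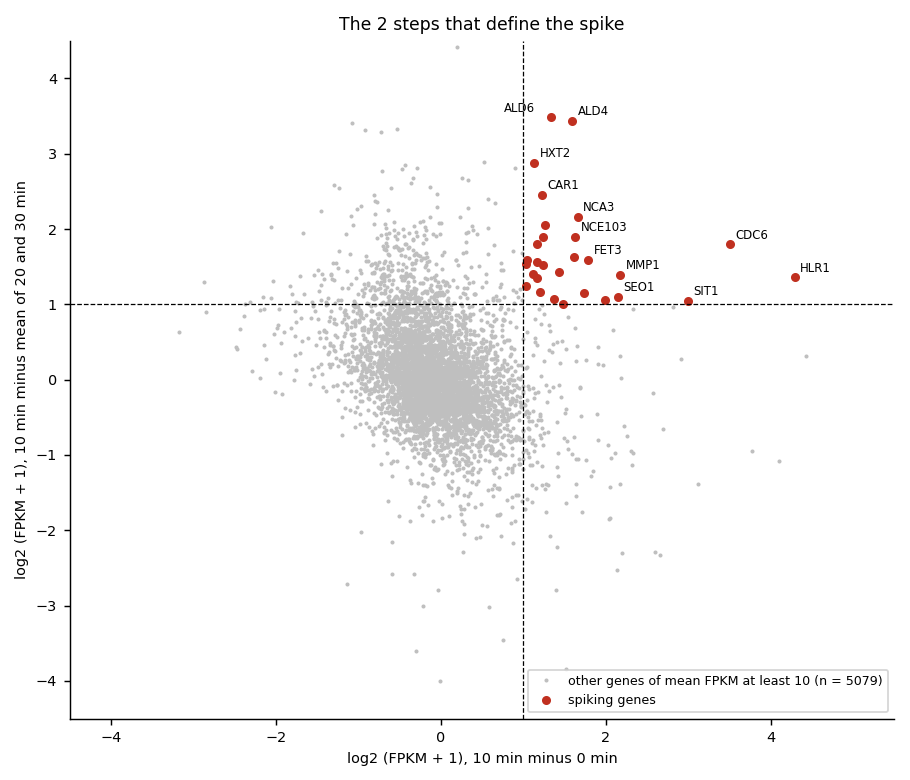
Each dot is a gene of mean FPKM at least 10. The horizontal axis gives log2(FPKM + 1) at 10 min minus 0 min, and the vertical axis gives 10 min minus the mean of 20 and 30 min. Dashed lines mark the step of 1 on each axis. Red dots are spiking genes, and tD(GUC)N, listed at 0 in the 0, 20 and 30 min libraries, lies outside the plot, as do a few other genes. ALD6, ALD4 and HXT2 stand highest on the vertical axis, and HLR1 and CDC6 farthest right among the red dots.

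The first step was taken by 180 of the 5110 genes (3.52%) and the second by 459 (8.98%), without a test in either case. The median over all 5110 genes was -0.11 for 10 min minus 0 min and -0.01 for 10 min minus the mean of 20 and 30 min on the log2 scale. Scaling every library to the same sum of FPKM moved the first of these medians by 0.30, to 0.19, since the 0 min library had the highest sum, and the first steps and the counts of genes past them below are relative to the deposited scale. Under that scaling 54 genes met the rule, including all 31. The shares of the 5110 genes past 2-fold at 10 min under that scaling are not given here, so list counts below for it have no background beside them. Most genes that were 2-fold higher at 10 min than at 0 min (149 of 180) did not also take the second step. The genes just inside the limit, by the smaller of their 2 steps, were ARN1 (1.01), MCM5 (1.03), MCM3 (1.03), SIT1 (1.05) and SMF3 (1.05). Just outside stood MCM2 (0.985), ISU2 (0.985), TIR2 (0.982), MSA2 (0.965) and ESBP6 (0.959). The limit thus runs through the helicase genes and close to several iron genes.

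The 10 min library was within the range of the others in total level and loci at 0. Its sum of FPKM was 1544512, within 1212671 to 1911174 over the 21 libraries, and 750 loci were listed at 0, within 680 to 822. The sum at 0 min, 1911174, was the highest. The 6 MATa markers fixed for the check (MFA1, MFA2, STE2, STE6, BAR1 and AGA2) summed to between 2597 and 87237 FPKM, with 54190 FPKM at 10 min, against 87237 FPKM at 0 min. The 4 MATalpha markers summed to between 49.5 and 86.0 FPKM, highest at 10 min. Of these, SAG1 was at 41.5 to 72.1 FPKM, STE3 at 4.58 to 11.9, MF(ALPHA)2 at 0.468 to 20.6 and MF(ALPHA)1 at 0.154 to 1.14. The 4 markers of meiotic or diploid cells (IME1, IME2, SPO11 and SPO13) summed to between 33.9 and 63.9 FPKM, and none of the markers was at 0 in any library. BAR1, disrupted in the strain, was at 1.34 to 3.18 FPKM. Of the disrupted cyclin genes CLB4 was listed at 0 in all 21 libraries, whereas CLB6 ranged from 1.84 to 160 FPKM and CLB1, which has the extra copy, from 90.4 to 293 FPKM. CLB2, CLB3 and CLB5 lay between 20.1 and 93.3 FPKM. The labels do not give which stretch of each gene was removed, so these levels do not check the genotype, and the strain is called by its label. These are levels in whole cultures, in which fewer cells of a kind and less RNA per cell cannot be told apart.

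The 30 genes that matched the R64 annotation lay on 11 chromosomes, and none overlapped another gene or had another of the 31 among the next 2 genes on either side. Their median length was 1581 bp (666 to 3357 bp), and that of the 5028 genes with a length among the 5110 was 1254 bp. The name tD(GUC)N was not matched.

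Short stretches upstream of 3 groups are shown, with motifs that the selection had not used. The licensing genes are on the list of early G1 genes with Mcm1 sites, so a match in them is no separate support. For the iron and arginine genes, the window in which all those shown held their motif was chosen after the data were seen. For the licensing genes, capitals mark the box TTNCCNNNNNNGGNAA, the Mcm1 box with both flanks, a form searched after the data were seen. All sequences are from the RefSeq R64 genome, the S288C reference and not the strain used, read 5′ to 3′ on the strand of the gene. They lie at chrX:69138-69167 and chrX:69154-69183 (CDC6, + strand), chrII:625536-625565 and chrII:625552-625581 (MCM7, +), chrV:86745-86774 (MCM3, +) and chrXII:691394-691423 (MCM5, +).
CDC6, first: gtcggagTTTCCAGATCAGGAAAttaccca
CDC6, second: caggaaaTTACCCACTTAGGAAAttgagtt
MCM7, first: aactaatTTACCCAGAAAGGAAAtttcctt
MCM7, second: aaggaaaTTTCCTTATAAGGAAAataaatg
MCM3: aattactTTTCCTAAATGGGTAAaaactcg
MCM5: tggcgtgTTTCCCTTTTAGGAAAagtgatt

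The boxes began 193 and 177 bases before the coding start in CDC6, 229 and 213 in MCM7, 185 in MCM3 and 154 in MCM5. In CDC6 and in MCM7 the boxes of the pair were adjacent. From 250 bases before to 50 after the start, searched on both strands, this box occurred in 4 of 30 genes (13.3%), against 55 of all 5981 promoters (0.920%). The 4 were the licensing genes themselves. The looser box with 1 flank, TTNCCNNNNNNGG, was also in CPA1, which made 5 of 30 (16.7%), against 8.93% of all promoters. Every match to the box with both flanks is also a match to the looser box.

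For the iron genes, capitals mark the Aft1 core GCACCC or, on the other strand, GGGTGC. The stretches lie at chrXIII:388560-388589 (FET3, +), chrV:27457-27486 (SIT1, +), chrVIII:21213-21242 (ARN1, -) and chrXII:212276-212305 (SMF3, -).
FET3: atcttcaaaagtGCACCCatttgcaggtgc
SIT1: gaacacatttgaGGGTGCaatctggttcgt
ARN1: atttatcaaaatGCACCCataaaagcaggt
SMF3: ctcatggtaaccGCACCCtgttgcccgccc

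For the arginine genes CPA1, ARG1 and CAR1, capitals mark the Gcn4 core TGACTC. The stretches lie at chrXV:882403-882432 (CPA1, +), chrXV:218854-218883 (ARG1, +) and chrXVI:339493-339522 (CAR1, +).
CPA1: tggaagggtgttTGACTCatcatcgcatcg
ARG1: gtgattttttagTGACTCatgtcgcatttg
CAR1: gggtgcaatcccTGACTCatcaatgtttat

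The printed Aft1 core began 250 bases before the start in FET3, 188 in SIT1, 259 in ARN1 and 360 in SMF3. FET3 and SMF3 each held another, 380 and 430 bases before the start. The printed Gcn4 core began 484 bases before the start in CPA1, 345 in ARG1 and 439 in CAR1. CPA1 and ARG1 each held another nearer the start, at 295 and 274 bases. In the window of 250 bases before to 50 after, the Aft1 core was in 3 of 30 genes (FET3, SIT1 and SEO1, 10.0%), against 4.25% of all promoters. The Gcn4 core was there in 2 of 30 (NCE103 and SHM2, 6.67%), against 7.98% of all promoters, and in none of CPA1, ARG1 and CAR1. The window of 500 bases before the start was added after the data were seen, and all 4 iron genes then held the Aft1 core and CPA1, ARG1 and CAR1 the Gcn4 core. In that window each core was in 7 of 30 genes (23.3%), against 7.62% of all promoters for Aft1 and 12.6% for Gcn4. Other holders were MMP1, CAR1 and SEO1 for Aft1, and SHM2, CRC1 and NRD1 for Gcn4. A match is a description of letters in the reference sequence and not of binding.

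The Mig1 core CCCCGC was in 2 of 30 genes in the shorter window (6.67%, MMP1 and MAL33), against 2.57% of all promoters. In the 500 bases it was in 7 of 30 (23.3%), against 5.78%. The 7 were NCE103, ALD4, MMP1, CAR1, MAL33, NRD1 and HXT2. The stress element AGGGG was in 5 of 30 genes in the shorter window (16.7%), against 21.7% of all promoters, and in 14 of 30 (46.7%) in the 500 bases, against 34.1%.

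Replication licensing contributed CDC6, the helicase loader, and MCM3, MCM5 and MCM7, subunits of the helicase ring. CDC6 had the largest contrast of the 4, with 3.88, 54.6, 25.1 and 8.78 FPKM at 0, 10, 20 and 30 min. Its log2 steps were 3.51 over 0 min and 1.80 over the mean of 20 and 30 min. From 40 to 200 min CDC6 ranged from 4.44 FPKM at 60 min to 19.6 at 180 min, with a median of 13.6, so the first maximum was not reached again.

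The 3 helicase subunits were already present at 0 min and were at lower levels at 30 min than at 0 min. MCM7 had 22.7, 54.8, 27.9 and 12.2 FPKM at 0, 10, 20 and 30 min, MCM3 had 24.5, 51.2, 26.3 and 10.9, and MCM5 had 28.9, 60.0, 33.2 and 18.2 at these times. Their later levels lay below all 4 of these. From 40 to 200 min MCM7 stayed between 4.84 and 8.46 FPKM (median 5.82), MCM3 between 6.87 and 10.2 (median 8.32) and MCM5 between 8.84 and 14 (median 9.67).

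The other subunits of the ring moved alike without meeting both steps. MCM2 had 17.7, 42.8, 34.0 and 13 FPKM at 0, 10, 20 and 30 min, and MCM6 had 12.4, 32.2, 24.8 and 14.5. MCM4 had 28.1, 48.3, 38.0 and 19.7 FPKM, less than 2-fold above 0 min, though past 2-fold with libraries scaled to the same sum. All 6 were thus highest at 10 min among these 4 times. The partners in loading did not share this: TAH11, which encodes the loader Cdt1, had 45.6, 47.4, 43.7 and 51.2 FPKM at the same times, and ORC1, the largest origin recognition subunit, had 14.1, 20.6, 31 and 43.7 FPKM.

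Of the list of 10 early G1 genes with Mcm1 sites, 7 were 2-fold higher at 10 min than at 0 min, and 5 were 2-fold above the mean of 20 and 30 min. The list's medians were 1.13 and 1.05 on the log2 scale, beside -0.11 and -0.01 over all 5110 genes. Apart from helicase and loader, it held CLN3, a G1 cyclin, with 143, 146, 83.5 and 53.0 FPKM at 0, 10, 20 and 30 min. SWI4, the DNA-binding subunit of the factor SBF, had 5.25, 28.1, 64 and 29.8 FPKM and so was highest at 20 min. FAR1, also on the list, fell from the start, with 210, 117, 84.2 and 63.5 FPKM and a log2 step of -0.84 over 0 min.

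**Figure D2:**
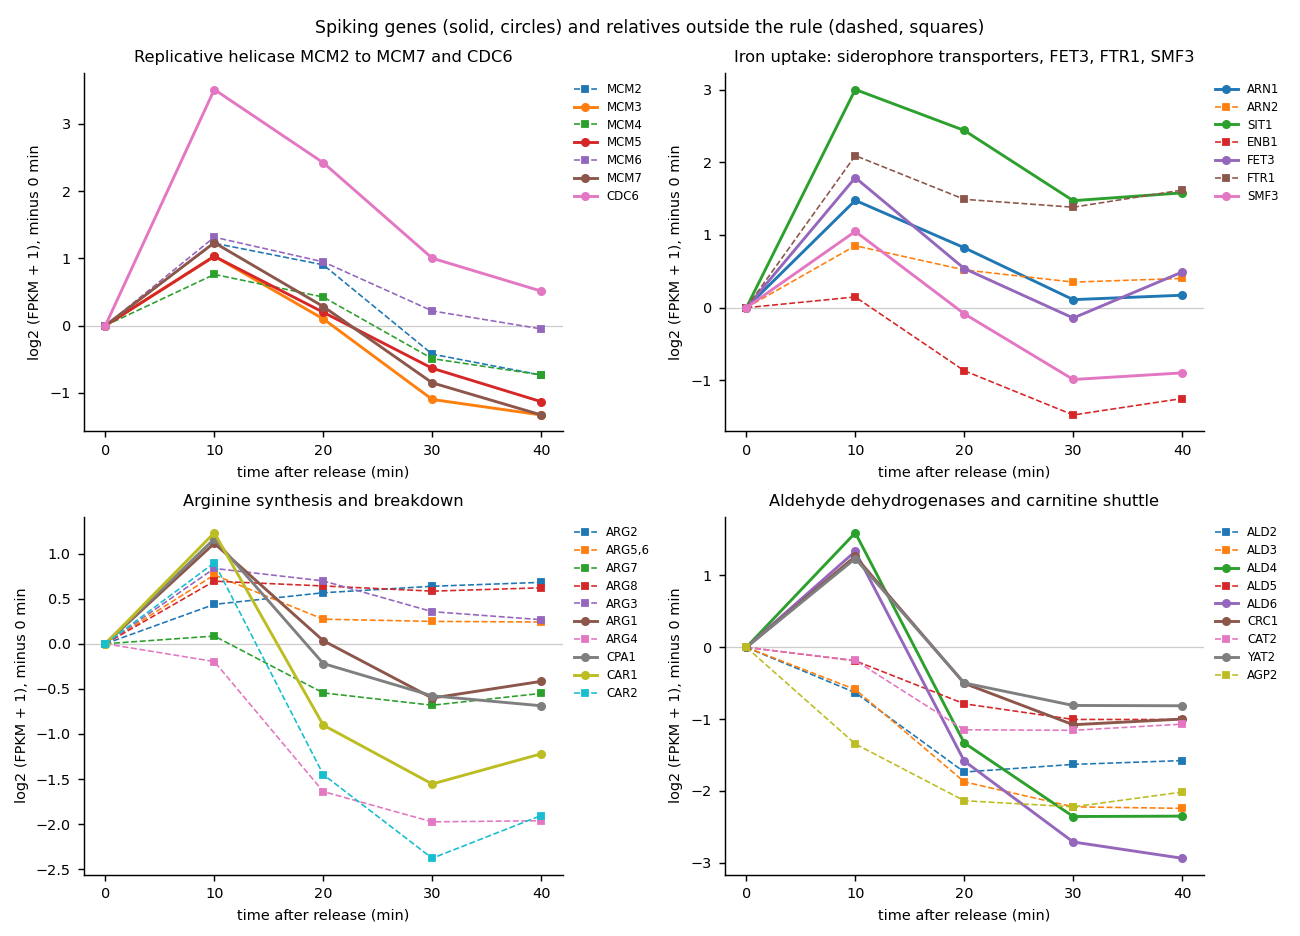
Level of spiking genes (solid lines, circles) and relatives outside the rule (dashed lines, squares) at 0, 10, 20, 30 and 40 min, as log2(FPKM + 1) minus the level at 0 min, 1 library per time. All 6 helicase subunits are above their level at 0 min at 10 min, whereas ALD2, ALD3, ALD5, CAT2 and AGP2 are below theirs. Of these 5, ALD5 and CAT2 turn positive when libraries are scaled to the same sum of FPKM (0.12 and 0.11).

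Iron uptake contributed 4 genes. FET3, the multicopper oxidase of high-affinity iron uptake, had 71.0, 248, 104 and 64.2 FPKM at 0, 10, 20 and 30 min. SIT1, a transporter of iron-siderophore complexes, had 9.26, 81.1, 54.6 and 27.4 FPKM, and ARN1, another such transporter, had 27.7, 78.7, 49.7 and 29.9 FPKM. SMF3, a vacuolar metal transporter, had 97.9, 204, 92.3 and 48.9 FPKM. The log2 step over 0 min was 3.0 for SIT1, 1.79 for FET3, 1.48 for ARN1 and 1.05 for SMF3.

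These genes differed in what followed. From 40 to 200 min FET3 ranged from 100 to 269 FPKM (median 185) and passed its 10 min level at 120 min, and SIT1 ranged from 29.6 to 86.3 FPKM (median 74.4) and passed it at 150 min, with its highest level at 160 min. ARN1 stayed between 27.0 and 48.2 FPKM (median 40.3) and SMF3 between 41.8 and 71.6 FPKM (median 62.3), below their 10 min levels. Among relatives, FTR1, the permease that works with Fet3, had 40.2, 174, 115 and 106 FPKM at 0, 10, 20 and 30 min and stayed too high for the second step. ARN2 had 28.1, 51.5, 40.7 and 36.1 FPKM, and ENB1, the enterobactin transporter, had 47.8, 53.0, 25.7 and 16.5 FPKM. SMF1 had 71.5, 58.0, 86.5 and 90.5 FPKM, with its lowest level of these times at 10 min, unlike SMF3, although its step over 0 min was near 0 (0.01) with libraries scaled to the same sum. Of the 18 iron and zinc genes on the list that could be included, 4 were 2-fold higher at 10 min than at 0 min and 7 were 2-fold above the mean of 20 and 30 min (medians 0.53 and 0.60). Both counts include FET3, SIT1 and ARN1, which were chosen by these same values. With libraries scaled to the same sum, 7 of the 18 were past the first step, with no share over all genes for that scaling.

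Arginine metabolism was represented by CPA1, ARG1 and CAR1. CPA1, which encodes the small subunit of the carbamoyl phosphate synthetase for arginine, had 309, 691, 265 and 206 FPKM at 0, 10, 20 and 30 min. ARG1, argininosuccinate synthetase, had 102, 221, 104 and 66.7 FPKM. CAR1, arginase, which breaks arginine down, had 208, 489, 111 and 70.2 FPKM. Genes of synthesis and of breakdown thus stood high in the same library.

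These genes parted later. ARG1 ranged from 76.0 FPKM at 40 min to 661 at 170 min (median 538), and its highest level was 299% of that at 10 min. CPA1 ranged from 191 to 385 FPKM (median 290) and CAR1 from 86.5 to 258 FPKM (median 151). ARG4, argininosuccinate lyase, which the strain carries as the marker at CLB5, had 791, 690, 253 and 201 FPKM at 0, 10, 20 and 30 min. CAR2, ornithine transaminase, had 23.1, 43.9, 7.83 and 3.64 FPKM, a step over 0 min of 0.90, just short of the rule. ARG3, ornithine carbamoyltransferase, had 43.4, 78.2, 71.0 and 55.9 FPKM. Of the 25 Gcn4 genes on the list, 3 were 2-fold higher at 10 min than at 0 min, ARG1 and CPA1 among them. With libraries scaled to the same sum, 6 of the 25 were past it, with no share over all genes for that scaling. The list's medians were 0.31 over 0 min and 0.60 over the mean of 20 and 30 min.

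Acetate, acetyl and propionate metabolism contributed 5 genes. ALD6, the cytosolic aldehyde dehydrogenase that makes acetate, had 521, 1317, 173 and 78.8 FPKM at 0, 10, 20 and 30 min. ALD4, the main mitochondrial aldehyde dehydrogenase, had 162, 491, 63.8 and 30.8 FPKM. These gave the steepest declines among the annotated genes of the 31, with log2 steps over the mean of 20 and 30 min of 3.48 for ALD6 and 3.44 for ALD4. The other 3 were of lower level. YAT2, a carnitine acetyltransferase, had 29.5, 70.8, 20.6 and 16.4 FPKM, CRC1, the mitochondrial carnitine carrier, had 13.2, 33.2, 9.06 and 5.75 FPKM, and PDH1, a 2-methylcitrate dehydratase of propionate breakdown, had 10.4, 29.7, 12.3 and 8.75 FPKM.

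From 40 to 200 min ALD6 ranged from 67.2 to 627 FPKM (median 320) and ALD4 from 26.8 to 104 FPKM (median 76.2), each with its high point at 130 min. YAT2 stayed between 16.3 and 22.4 FPKM, CRC1 between 6.13 and 15.2 FPKM and PDH1 between 9.71 and 18.2 FPKM. Relatives did not share the first step. ALD2 had 20.1, 12.6, 5.32 and 5.81 FPKM, ALD5 had 90.8, 79.6, 52.2 and 44.8 FPKM, and CAT2, the other carnitine acetyltransferase, had 20.5, 18, 8.72 and 8.67 FPKM at 0, 10, 20 and 30 min. All 3 were lower at 10 min than at 0 min as deposited, and ALD5 and CAT2 turned positive, to 0.12 and 0.11 on the log2 scale, with libraries scaled to the same sum. All 3 were lower at 30 min than at 10 min, as the spiking genes were. The 10 glucose-repressed genes on the list likewise had a median of 2.21 for 10 min minus the mean of 20 and 30 min, with 8 of 10 past 2-fold, but a median of -0.15 for 10 min minus 0 min, with 0 of 10 past 2-fold. The median over 0 min turned positive, to 0.14, when all libraries were scaled to the same sum of FPKM.

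HXT2, a high-affinity glucose transporter, had 798, 1750, 265 and 211 FPKM at 0, 10, 20 and 30 min, the highest level of the 31 genes. From 40 to 200 min it ranged from 416 to 888 FPKM (median 585). Of the 5 transporters among HXT1 to HXT7 that could be included, HXT2 alone was 2-fold higher at 10 min than at 0 min, under both scalings tried as well, and all 5 were 2-fold above the mean of 20 and 30 min. HXT1 had 241, 242, 101 and 75.1 FPKM and HXT3 had 922, 1351, 591 and 444 FPKM at 0, 10, 20 and 30 min. MAL33, a regulator of maltose genes that is nonfunctional in the reference strain, had 48.6, 110, 33.7 and 28.2 FPKM, and stayed between 24.1 and 35.3 FPKM from 40 to 200 min.

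MMP1, the permease of S-methylmethionine, and SEO1, a permease that the annotation describes as a dipeptide transporter, shared a saw-tooth course. MMP1 had 50.7, 233, 42.3, 182 and 209 FPKM at 0, 10, 20, 30 and 40 min. SEO1 had 17.7, 82.0, 16.8, 83.4 and 111 FPKM at these times. Both were thus low at 20 min between high levels at 10 and 30 min, and they met the rule only through the mean of 20 and 30 min. SAM3, the S-adenosylmethionine permease, had 139, 231, 58.7 and 162 FPKM at 0, 10, 20 and 30 min, and MUP1, the high-affinity methionine permease, had 305, 391, 227 and 680 FPKM, also with their lowest level of these times at 20 min. Of the 18 sulfur genes on the list, 2 were 2-fold higher at 10 min than at 0 min and 3 were 2-fold above the mean of 20 and 30 min. With libraries scaled to the same sum, 6 of the 18 were past the first step, with no share over all genes for that scaling.

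The next 4 genes serve single metabolic steps. NCE103, carbonic anhydrase, which supplies bicarbonate, had 189, 588, 173 and 143 FPKM at 0, 10, 20 and 30 min. SHM2, the cytosolic serine hydroxymethyltransferase of one-carbon metabolism, had 90.0, 277, 83.6 and 94.8 FPKM. INO1, which makes inositol phosphate from glucose 6-phosphate, had 17.9, 41.5, 19 and 13 FPKM, and ARO10, a decarboxylase of aromatic amino acid breakdown, had 22.3, 91.5, 64 and 29.7 FPKM.

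ARO10 had a second, lower maximum of 72.9 FPKM at 80 min, and from 40 to 200 min its median was 25.4 FPKM. NCE103 stayed between 108 and 181 FPKM from 40 min on, and SHM2 between 87.5 and 178 FPKM. SHM1, the mitochondrial counterpart of SHM2, had 268, 171, 111 and 107 FPKM at 0, 10, 20 and 30 min and so went the other way in the first 10 min. Of the 8 genes of inositol and phospholipid synthesis set beside INO1, itself included, only INO1 was 2-fold higher at 10 min than at 0 min, under both scalings tried as well. The median of the 8 turned positive, to 0.19, with libraries scaled to the same sum, against -0.11 as deposited.

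The cell wall and surface contributed HLR1, NCA3 and WSC3. HLR1, which the annotation ties to the regulation of cell wall composition, had 7.46, 165, 103 and 38.9 FPKM at 0, 10, 20 and 30 min, a log2 step of 4.29 over 0 min. It was the largest first step among the annotated genes of the 31. NCA3, of the SUN family of wall proteins, had 100, 319, 119 and 41.3 FPKM, and afterwards stayed between 15.9 and 33.4 FPKM, at most 10.5% of its 10 min level. WSC3, a sensor of wall stress, had 32.3, 75.6, 39.5 and 27.9 FPKM.

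Relatives of the wall genes were less than 2-fold above 0 min at 10 min as deposited. UTH1, also of the SUN family, had 2700, 1946, 430 and 180 FPKM at 0, 10, 20 and 30 min, and WSC2 had 128, 56.6, 72.8 and 75.3 FPKM. MID2, another sensor, had 362, 165, 159 and 132 FPKM. SUN4 of the SUN family had 38.4, 63.8, 39.7 and 27.1 FPKM, a step over 0 min of 0.72 as deposited and of 1.02, past 2-fold, with libraries scaled to the same sum. Of the 5 wall sensors that could be included, 1 was 2-fold higher at 10 min than at 0 min (WSC3) and 3 were 2-fold lower. With libraries scaled to the same sum, 1 of the 5 was 2-fold lower, with no share over all genes for that scaling.

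Of the remaining genes, NRD1 encodes an RNA-binding subunit of the complex that ends transcription of short and noncoding RNAs. It had 33.2, 114, 57.2 and 44.7 FPKM at 0, 10, 20 and 30 min. Its partners NAB3 and SEN1 had 55.5 and 35.5 FPKM at 10 min, against 49.6 and 30.5 FPKM at 0 min. YML131W, an uncharacterized gene, had 55.4, 145, 101 and 46.1 FPKM and reached 214 FPKM at 200 min, above its first maximum. The locus tD(GUC)N was at 129, 124 and 122 FPKM at 10, 80 and 140 min, and was listed at 0 in all other libraries, so no fold is given.

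**Figure D3:**
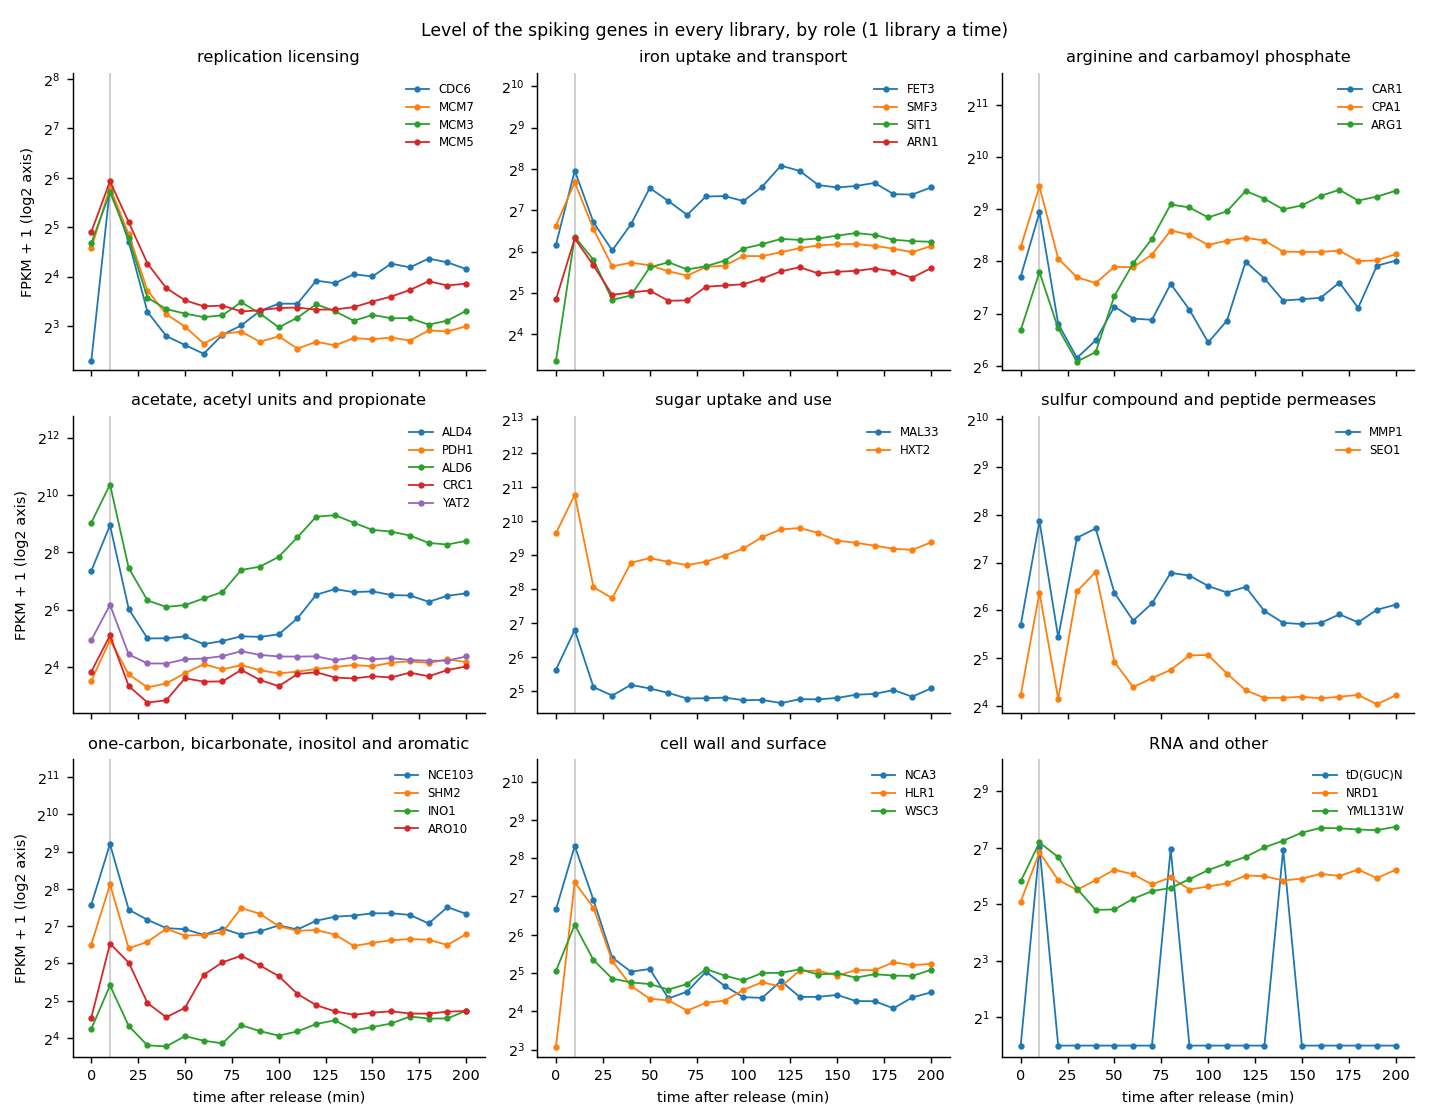
Level of the spiking genes described here in all 21 libraries, as FPKM + 1 on a log2 axis against minutes after release, 1 panel per role. The grey line marks 10 min. The helicase genes stay low after 30 min, ARG1 and YML131W climb past their level at 10 min, MMP1 and SEO1 dip at 20 min between high levels at 10 and 30 min, and tD(GUC)N is above 0 in single libraries.

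From 40 min on the 31 genes took different courses. In this span, 14 of them never came above 50% of their 10 min level, 12 came above 50% without reaching it, and 5 (FET3, SIT1, ARG1, SEO1 and YML131W) reached or passed it. These 17 libraries, 40 to 200 min, entered the selection only through the mean level, so they allow tests. The exceptions are MCM3 and MCM7, whose means from 40 min on were below 10 FPKM. They passed the minimum only through the earlier libraries, so no test result is read for these 2. Both stay in the counts and the median over the 31 genes below, and neither was called in any of them. Leaving both out with a minimum of 10 FPKM gave the same numbers of genes called, out of 29. Change over time was tested with limma on log2(FPKM + 1) with a spline of 3 degrees of freedom over 6206 loci. A locus was called at a Benjamini-Hochberg adjusted p under 0.05 and a fitted range of at least 1. Neighbouring times of 1 culture are not independent replicates, so all these p-values are too small.

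Of all loci tested, 16.9% were called, and 9 of the 31 genes were. Among them were ALD6 (fitted range 3.25), YML131W (2.95), ARG1 (2.80), ALD4 (1.82), CDC6 (1.70), SEO1 (1.62), ARO10 (1.46) and SIT1 (1.19). SEO1 had its fitted maximum at 40 min and ARO10 at 90 min, whereas ALD6, YML131W, ARG1, ALD4, CDC6 and SIT1 had theirs between 150 and 200 min. SEO1 was not called without the 40 min library (fitted range 0.74), nor was SIT1 (0.87). With libraries scaled to the same sum, 16 of the 31 and 24.5% of all loci were called, and SEO1 was not (adjusted p = 0.0733).

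The 9 libraries of 120 to 200 min were also compared with the 8 of 40 to 110 min. Called higher, at a limma adjusted p under 0.05 and a log2 difference of at least 1, were 2.64% of all loci and 4 of the 31 genes. YML131W averaged 177 FPKM in the later window and 49.8 FPKM in the earlier one, a log2 difference of 1.88 (SE 0.22, adjusted p = 7.92e-06). ALD6 averaged 440 FPKM in the later window and 157 FPKM in the earlier one (1.68, SE 0.30, adjusted p = 0.000216), ALD4 averaged 91.8 FPKM in the later window and 33.6 FPKM in the earlier one (1.44, SE 0.09, adjusted p = 7.60e-08), and CDC6 averaged 16.5 FPKM in the later window and 7.19 FPKM in the earlier one (1.13, SE 0.13, adjusted p = 7.92e-06). Called lower were 0.258% of all loci and 0 of the 31 genes. At an unadjusted p under 0.05, whatever the size, 5 of the 31 were lower and 19 higher. The shares of all loci at this limit are not given. They were at least the 29.0% higher and 23.9% lower found at the adjusted p.

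At the adjusted p alone, 17 of the 31 genes and 29.0% of all loci were higher in the later window, and 4 of the 31 genes and 23.9% of all loci were lower. The 4 lower genes were SEO1, ARO10, MMP1 and SHM2, with log2 differences of -0.84, -0.80, -0.61 and -0.34. The 4 iron genes were among the higher ones, with SIT1 at 0.63, ARN1 at 0.45 and FET3 and SMF3 at 0.42 each. FET3 did not pass when 130 to 200 min was compared with 40 to 120 min (0.27, limma adjusted p = 0.141, and at most 0.0180 under every other alternative). The helicase gene MCM5 did not pass, with a log2 difference of 0.17 (95% interval -0.03 to 0.37), but passed with libraries scaled to the same sum (0.32, limma adjusted p = 0.032). The median difference was 0.26 over the 31 genes and 0.03 over all loci tested. With all libraries scaled to the same sum of FPKM, ARG1 was called higher as well, at 1.14, at a background of 3.77%. At the adjusted p alone 20 of the 31 were then higher and 2 lower, against 35.7% and 9.62% of all loci.

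**Figure D4:**
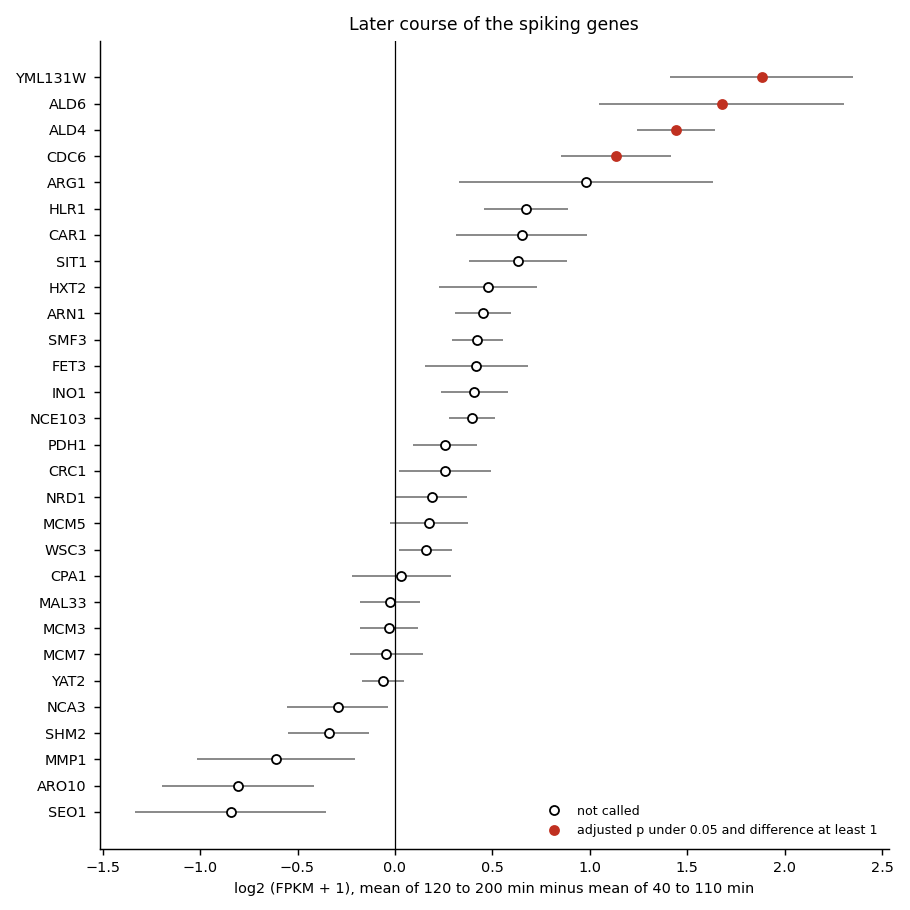
Difference in log2(FPKM + 1) of the spiking genes described here between the mean of 120 to 200 min (9 libraries) and the mean of 40 to 110 min (8 libraries), later minus earlier, with 95% intervals from limma as bars. tD(GUC)N is not drawn, and MCM3 and MCM7 are drawn but no test result is read for them. Red dots are YML131W, ALD6, ALD4 and CDC6, which were called higher, and SEO1 lies lowest at -0.84.

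Other gene groups had other courses. Of 32 replication genes known as targets of the factor MBF, 20 were 2-fold higher at 10 min than at 0 min, but 0 were 2-fold above the mean of 20 and 30 min and 21 were 2-fold below it, against 4.13% of the 5110 genes. Of 20 genes known as targets of SBF, 10 were 2-fold higher at 10 min than at 0 min, 1 was 2-fold above the mean of 20 and 30 min and 10 were 2-fold below it. Of 28 pheromone genes, 16 were already 2-fold lower at 10 min than at 0 min, and of 8 galactose genes 6 were, against 4.15% of the 5110 genes. Above the mean of 20 and 30 min by 2-fold were 10 of the 28 pheromone genes and 3 of the 8 galactose genes. Of 20 general stress genes, 18 were 2-fold above the mean of 20 and 30 min and 0 were 2-fold higher at 10 min than at 0 min. With libraries scaled to the same sum, 26 MBF and 13 SBF genes were past the first step. On that scale 8 pheromone and 3 galactose genes were 2-fold lower, and 1 stress gene was 2-fold higher. No shares over all 5110 genes are given for that scaling. None of these 5 lists held any of the 31 genes, but the 31 were only 0.607% of the 5110 genes, so nothing is read from this.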

How the data were processed

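Polyadenylated RNA of 21 libraries was sequenced with a stranded mRNA kit, per the labels' protocols. STAR, Cufflinks, Cuffnorm and build R64 are named in the submitters' processing notes, without versions. The values the authors deposited were read as FPKM with 1 added to each. The unit was inferred from the tools and values, and the 1 was subtracted. Read depth is unknown and no counting interval is given. Other deposited data, 50 columns in all, were not used here.

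The 31 genes and all lists, families and motifs were chosen with earlier results of these data known. The families, the Mcm1 box with both flanks and the window of 500 bases were chosen after the data were seen. Steps at 10 min used log2(FPKM + 1). From 40 to 200 min, limma 3.58.1 in R 4.3.3 was fitted to log2(FPKM + 1) with a variance trend over loci of mean FPKM at least 1, with the Benjamini-Hochberg adjustment over all of them, and the script was tested on simulated data. Genes were named by a rule covering all 31 by role, the 5 on each side of the limit, genes of the lists and those called in either fit. Relatives were named in addition. Names were matched to the R64 annotation for 6207 loci (87.1%), and promoters were read from that genome. Alternatives were other scalings, pseudocounts, minimum levels, steps, splines, windows and left-out libraries. Python 3.11.15 was used for the rest. Counts over the 31 genes include 1 gene that is not reported here by name.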

Additional observations from a re-analysis of the deposited data

How the results depend on the processing

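No paired analysis was possible because each time has 1 library and none carries a replicate number. The rule gave 31 genes as applied. It gave 54 with libraries scaled to the same sum of FPKM, 18 with a pseudocount of 10, 50 with no minimum level, 19 when 10 min had to stand 1 above each of 20 and 30 min, 49 at a step of 0.8 and 7 at a step of 1.5. All 31 were among the 54, the 50 and the 49. With the same-sum scaling the medians for 10 min minus 0 min turned positive for translation factors (0.071), phosphate genes (0.078), glucose-repressed genes (0.14), ergosterol genes (0.069), purine and pyrimidine synthesis (0.26), histones (0.091), aldehyde dehydrogenases (0.12) and inositol and phospholipid synthesis (0.19). It also raised the number of the 31 genes called between 40 and 200 min to 16, against 9, and lowered those below their earlier window at the adjusted p alone to 2, against 4. Over all loci, 105 were called higher in the later window with a minimum of 10 FPKM, which tests fewer loci, against 164, and 25 were called lower with a pseudocount of 0.1, against 16. ARO10 was no longer called with a spline of 2 degrees of freedom (fitted range 0.997). In the 500 bases before the start, 12 genes held the Mcm1 box with 1 flank (40.0%, against 17.4% of all promoters), 7 the Aft1 core and 7 the Gcn4 core, and in the 250 bases before the start 1 held the Gcn4 core. The cause of these changes was not tested, other than that longer windows hold more letters. Depth is unknown, so low levels such as those of CDC6 and HLR1 at 0 min carry an unknown counting error.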

Other observations

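The same steps, applied at each later time in place of 10 min, were met by 24 genes at 20 min, 30 at 120 min and 7 at 80 min, and by 0 to 2 at every other time up to 180 min. Among the 31 genes, only tD(GUC)N met them at another time, at 80 and 140 min. A further 11 loci of mean FPKM at least 10 met both steps at 10 min but carry names of the classes left out.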
